A study of Homo sapiens with 2 samples.

Results

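Aminoacyl-tRNA synthetases are the enzymes that join each amino acid to its transfer RNA (tRNA). The 36 genes described here were taken by symbol from a table of 29452 gene rows, and all 36 were found: 20 whose names do not end in 2, read here as the cytosolic enzymes, and 16 whose names end in 2, which encode mitochondrial enzymes. The table came from RNA sequencing of MDA-MB-231 cells, an established human breast cancer line of the triple-negative type. One library was from cells carrying a short hairpin RNA against the cyclin-dependent kinase gene CDK14 (CDK14-sh) and 1 from cells carrying a scramble control. A stranded mRNA kit was used on total RNA, and the sources used here give no clone, passage or time after transduction. With 1 library per group there is no replicate check on any difference and no test, so "higher" and "lower" describe these libraries and not the conditions.

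A synthetase reads the amino acid and the tRNA together, which makes these enzymes the step where the genetic code is applied. Human cells keep one set for the cytosol and another for the small protein synthesis system inside mitochondria. Both sets are encoded in the nucleus. GARS and KARS each serve both compartments, and EPRS joins glutamate and proline activities in 1 chain. The enzymes fall into classes I and II, which fold differently around the active site. In the cytosol 8 of them (DARS, EPRS, IARS, KARS, LARS, MARS, QARS and RARS) sit in a large multi-synthetase complex held together by AIMP1, AIMP2 and EEF1E1. Uncharged tRNA activates the kinase GCN2, which raises translation of the transcription factor ATF4, and several cytosolic synthetase genes are known ATF4 targets.

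The promoters that carry an ATF4 element are shown first, because that element is known from genes that answer amino acid shortage. The element searched was TGATGNAA, the core of the C/EBP-ATF response element, on both strands, from 250 bases before to 50 bases after the start site in RefSeq (GRCh38.p14). Promoters were matched for 30 of the 36 members, leaving DARS, LARS, VARS, YARS, AARS2 and VARS2. Of these 30, 7 held the element (23.3%), against 1270 of 35116 promoters in the whole table (3.62%). They were 6 of the 16 cytosolic members matched and 1 of the 14 mitochondrial members, YARS2. The 6 cytosolic stretches follow, 5′ to 3′ on the strand of the gene, with the element or its reverse complement in capitals.
AARS, chr16:70289660-70289719, minus strand: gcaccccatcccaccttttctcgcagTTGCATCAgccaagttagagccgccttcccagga
CARS, chr11:3057392-3057451, minus strand: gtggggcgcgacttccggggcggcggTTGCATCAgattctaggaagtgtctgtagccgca
IARS, chr9:92293677-92293736, minus strand: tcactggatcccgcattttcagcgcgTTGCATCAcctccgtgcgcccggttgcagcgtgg
MARS, chr12:57488038-57488097, plus strand: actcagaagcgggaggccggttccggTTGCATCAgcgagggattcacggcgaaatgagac
NARS, chr18:57621789-57621848, minus strand: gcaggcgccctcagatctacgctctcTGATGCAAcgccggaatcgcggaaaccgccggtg
TARS, chr5:33440941-33441000, plus strand: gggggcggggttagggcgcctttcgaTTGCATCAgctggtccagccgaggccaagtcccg
All 6 share the same 8 letters on one strand or the other. In 5 of them the element begins between position -13 and position 14 relative to the RefSeq start site, and in AARS at -187. A match of letters is a description of the sequence and not a binding site.

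The libraries were first checked against their labels. CDK14, the targeted gene, had 58 reads (0.548 RPKM) under the hairpin and 292 reads (2.48 RPKM) in the control, so its level was 22.1% of the control. Its row shares exon positions, on either strand, with CLDN12, AC006153.3 and CTB-13L3.1, and how reads there were assigned is not given. RPKM scales reads by exon length and by library total. The length is the total exon length of the row, which can exceed that of the transcript made. Levels of different genes, and their ranks, therefore rest on the annotation, while the ratio of 1 gene between the libraries does not. The libraries held 15478156 and 17217564 reads assigned to genes. The mesenchymal and surface markers VIM, CD44, AXL and CAV1, which this line is known to express, stood between 36.1 and 249 RPKM. The list of 6 markers for the line also held the keratin genes KRT8 and KRT18, which stood between 14.4 and 48.6 RPKM. Of the 6, 5 were lower in CDK14-sh than in the control and 1, CD44, was higher. Lower by more than 1.5-fold were VIM (146 against 249 RPKM), CAV1 (36.1 against 65.2 RPKM) and KRT8 (27.7 against 48.6 RPKM). Estrogen and progesterone receptor genes (ESR1, PGR) had at most 8 reads, while the third receptor gene listed, ERBB2, stood at 2.96 RPKM in CDK14-sh and 2.33 in the control. Of the 4 leukocyte markers 2 were found, PTPRC with 3 reads and CD14 with 22 reads in each library. Of the 3 endothelial markers VWF had 0 reads in both libraries, CDH5 5 in each, and PECAM1 20 in CDK14-sh and 52 in the control. Of the 4 fibroblast markers DCN had 0 reads, PDGFRA at most 1 and COL1A2 at most 3, but COL1A1 stood at 1.99 and 1.65 RPKM.

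All 36 synthetase genes reached 1 RPKM, the level required for a ratio. In the scramble control the cytosolic genes ranged from 6.34 to 74.1 RPKM with a median of 24.4, and the mitochondrial genes from 1.34 to 43.5 RPKM with a median of 3.94. In CDK14-sh the cytosolic genes ranged from 8.65 to 86.9 RPKM with a median of 22.7, and the mitochondrial genes from 1.32 to 29.4 RPKM with a median of 3.63. The highest cytosolic levels in the control belonged to TARS (threonine, 74.1 RPKM), NARS (asparagine, 71.0 RPKM) and SARS (serine, 55.4 RPKM). The lowest were HARS (histidine, 10.2 RPKM), CARS (cysteine, 9.43 RPKM) and WARS (tryptophan, 6.34 RPKM). Among mitochondrial genes of the control IARS2 (isoleucine) stood far above the rest at 43.5 RPKM, followed by HARS2 at 11.1 and LARS2 (leucine) at 6.13 RPKM. EARS2 (glutamate, 1.67 RPKM), SARS2 (1.60 RPKM) and PARS2 (proline, 1.34 RPKM) were lowest. Reads per member ran from 48 for PARS2 in CDK14-sh to 7692 for TARS in CDK14-sh, so the mitochondrial ratios carry wider counting error.

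**Figure D1:**
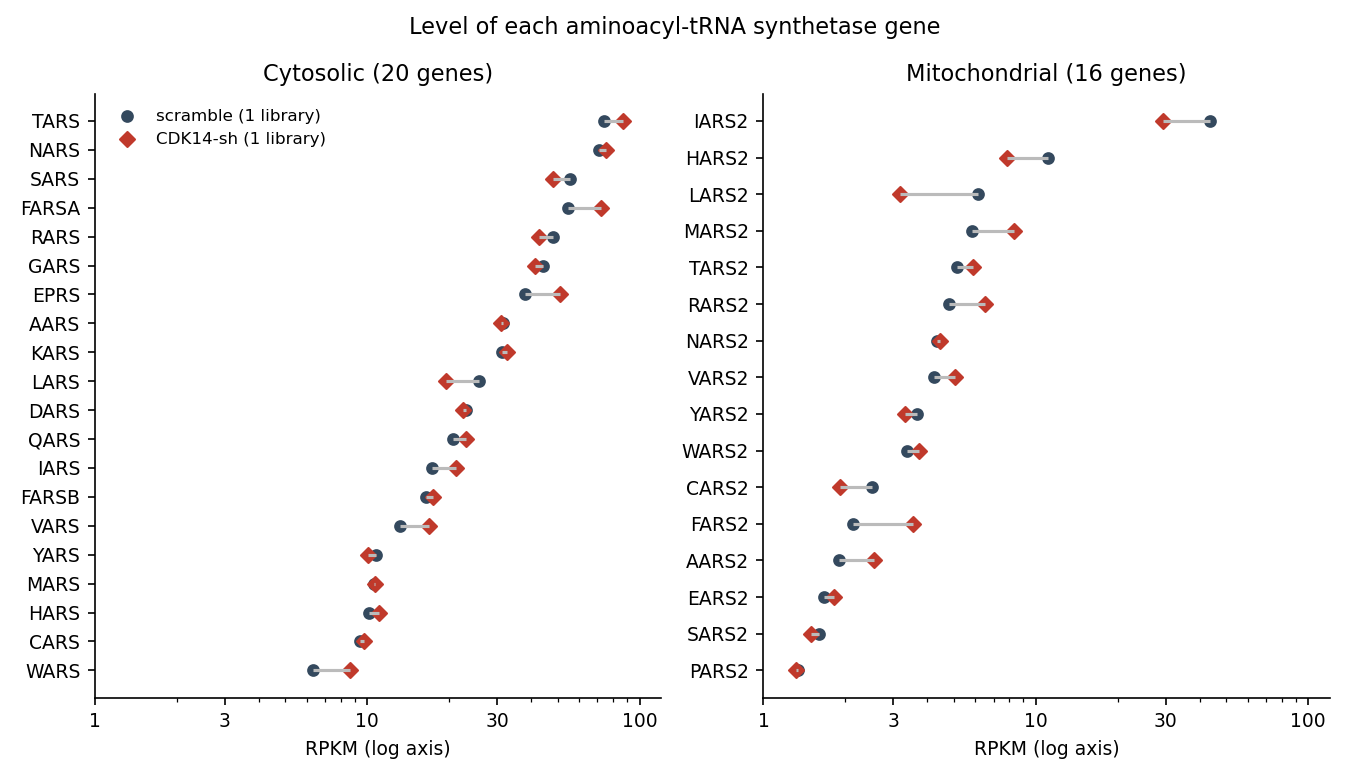
RPKM (log axis) of the 20 cytosolic genes (left) and 16 mitochondrial genes (right), ordered by level in the scramble control. Circles are the scramble library and diamonds the CDK14-sh library, joined by a line. Most pairs of points nearly coincide, while LARS2, IARS2 and HARS2 lie lower and FARS2 and MARS2 higher in CDK14-sh.

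The main comparison asks whether synthetase transcripts differed between the knockdown and the control. Their medians were slightly above that of all genes. The log2 ratio, taken as log2((RPKM in CDK14-sh + 0.1)/(RPKM in scramble + 0.1)), had a median of 0.07 over the 20 cytosolic genes and 0.08 over the 16 mitochondrial genes, against 0.04 over the 14878 genes that reached 1 RPKM in either library. This scale slightly understates the change of low genes. The medians moved with the rows kept: 0.12 over the 10 cytosolic genes that overlap no other row, and 0.20 over the 7 mitochondrial genes that reached 5 RPKM, each against 0.04 for all genes kept. In bulk RNA, fewer cells carrying a transcript and less of it per cell cannot be told apart. None of the 36 was at least 2-fold higher or lower, against 3.21% and 3.47% of all genes. At 1.5-fold, FARS2 alone was higher and LARS2 alone lower, 2.78% of members in each direction, against 9.11% and 9.55% of all genes. Among the 13299 genes that also had at least 30 reads, the shares at 2-fold were 1.25% and 2.18% and those at 1.5-fold were 6.5% and 7.9%. Of the 36 members 22 lay above 0 (61.1%), against 54.7% of all genes and 54.5% of those with at least 30 reads.

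For 22 members the ratio differed from 1 by more than counting error. The 95% Clopper-Pearson counting interval of the ratio lay wholly above 1 for 14 members (38.9%; 27.3% of all genes, 29.7% with at least 30 reads). It lay wholly below 1 for 8 members (22.2%; 22.6% and 24.8%). An interval clears 1 more readily the more reads a gene has, and these shares were not matched for read number. Each cytosolic member had at least 694 reads in each library. The intervals leave out the spread between cultures, which these data do not measure, and PCR copies are not independent molecules. The split is relative to the library totals. Setting the RPKM of both libraries to an equal sum (TPM) moves each plain log2 ratio by -0.15 and the median of all genes to -0.11, and then 9 intervals lay above and 15 below 1. In TPM the cytosolic median was -0.08 and the mitochondrial -0.07.

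**Figure D2:**
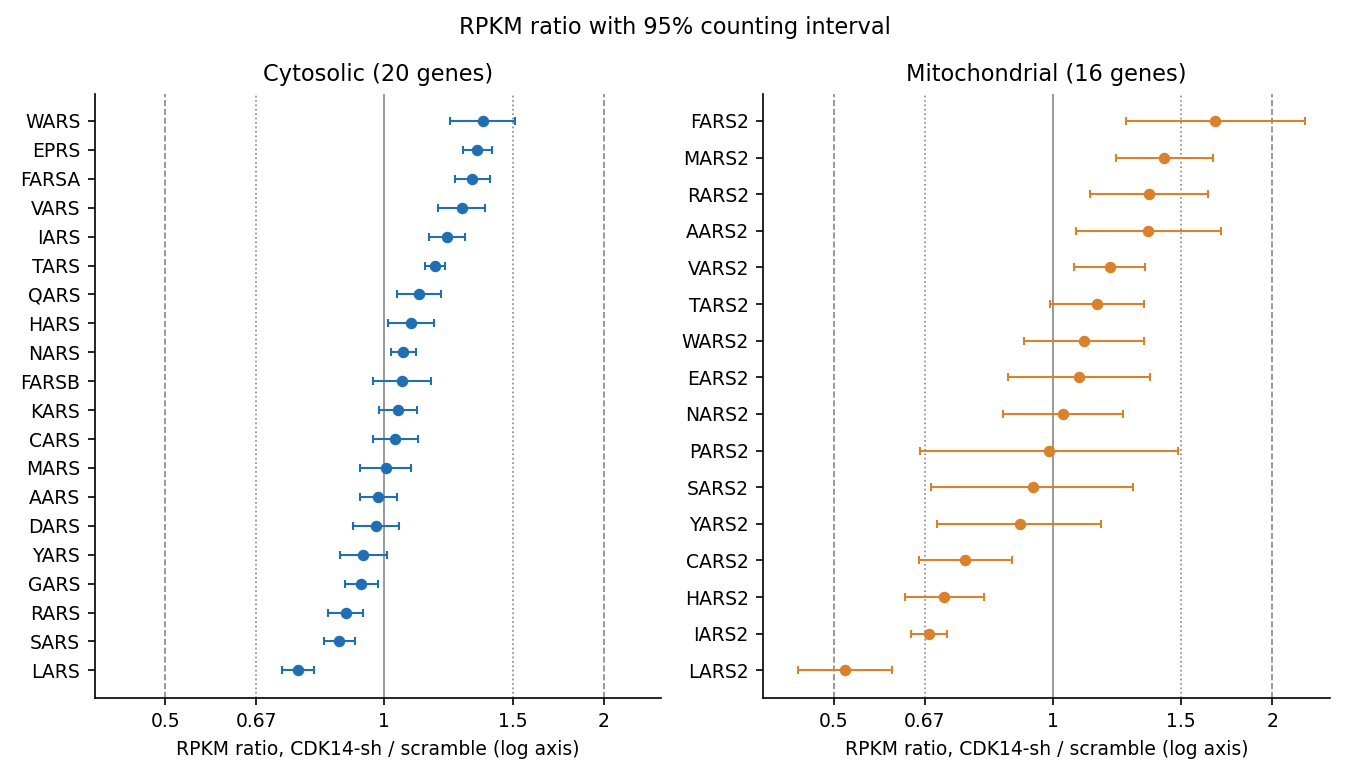
Ratio of RPKM, CDK14-sh over scramble (log axis), for each cytosolic gene (left) and mitochondrial gene (right), with 95% counting intervals as bars. Solid, dotted and dashed vertical lines mark a ratio of 1, 1.5-fold and 2-fold. The points run from 0.518 (LARS2) to 1.67 (FARS2), and 14 bars lie above and 8 below 1.

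The log2 ratios of the cytosolic genes ran from -0.39 (LARS) to 0.44 (WARS), with 8 of 20 within 0.1 of 0. The share of all genes within 0.1 of 0 was not computed, so that count has no background. Each cytosolic gene had at least 694 reads in each library, and genes with similar read numbers were not compared. WARS, the tryptophan enzyme and a gene known to be induced by interferon gamma, stood at 8.65 RPKM in CDK14-sh and 6.34 in the control, 1.36-fold higher (1.23 to 1.51). Its row shares exon positions, counted on either strand, with WDR25 and RP11-638I2.8. How reads in the shared part were assigned is not given in the sources used here. The same holds for FARSA with FARSA-AS1, LARS with RP11-118M9.3 and GARS with AC005154.6. EPRS, the joined glutamate and proline enzyme, stood at 51.0 and 38.0 RPKM, 1.34-fold higher (1.28 to 1.40). FARSA, the catalytic alpha subunit of the phenylalanine enzyme, stood at 72.1 and 54.6 RPKM, 1.32-fold higher (1.25 to 1.40). VARS, the valine enzyme, stood at 16.8 and 13.2 RPKM, 1.28-fold higher (1.19 to 1.37). These 4 had the highest ratios of the cytosolic set. They charge different amino acids and belong to both classes, and of them EPRS alone sits in the complex.

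At the other end, LARS, the leucine enzyme, stood at 19.5 RPKM in CDK14-sh and 25.7 in the control, 1.31-fold lower (1.25 to 1.38). SARS, which charges serine and also the tRNA of selenocysteine, stood at 48.1 and 55.4 RPKM, 1.15-fold lower (1.10 to 1.21). RARS, the arginine enzyme, stood at 42.6 and 48.1 RPKM, 1.13-fold lower (1.07 to 1.20). GARS, the glycine enzyme of both compartments, stood at 41.3 and 44.4 RPKM, 1.08-fold lower (1.02 to 1.13). Each of these 4 intervals lay below 1, though by little in GARS. IARS, the isoleucine enzyme, stood at 21.1 and 17.3 RPKM, 1.22-fold higher (1.15 to 1.29). TARS stood at 86.9 and 74.1 RPKM, 1.17-fold higher (1.14 to 1.21), so the most abundant synthetase transcript of the control was also that of CDK14-sh. QARS, the glutamine enzyme, stood at 23.0 and 20.6 RPKM, 1.12-fold higher (1.04 to 1.19). NARS and HARS were 1.06-fold and 1.09-fold higher (1.02 to 1.11 and 1.01 to 1.17), but lay below 0 in TPM. For YARS (tyrosine), DARS (aspartate), AARS (alanine), MARS (methionine), CARS, KARS (lysine) and FARSB the interval held 1, and their ratios ran from 0.936 to 1.06.

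The phenylalanine enzyme is built from equal numbers of alpha and beta chains, yet its genes stood at unequal levels. FARSA was 3.31 times the level of FARSB in the control and 4.14 times in CDK14-sh. These levels rest on row lengths of 2435 bases for FARSA and 3369 for FARSB. FARSB, the beta subunit, stood at 17.4 RPKM in CDK14-sh and 16.5 in the control, a ratio of 1.06 (0.964 to 1.16). The interval of FARSA lay above 1 and that of FARSB held 1, and the difference between them was not tested.

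Enzymes of the multi-synthetase complex lay on both sides of 0. The 8 enzymes of the complex had a median log2 ratio of 0.03, with 5 above and 3 below 0. The 12 outside it had a median of 0.08, with 8 above and 4 below. Of all genes that reached 1 RPKM, 54.7% lay above 0. Within the complex the range ran from LARS at -0.39 to EPRS at 0.42. The scaffold genes all lay above 0. AIMP1 stood at 27.1 RPKM in CDK14-sh and 19.6 in the control, 1.38-fold higher (1.28 to 1.5). EEF1E1 was 1.19-fold higher (1.04 to 1.37) and AIMP2 had a ratio of 1.14 (0.984 to 1.31). By catalytic class, leaving out EPRS, which joins both, the 18 class I genes had a median of 0.08 and the 17 class II genes 0.06.

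The mitochondrial genes spread more widely, from -0.93 to 0.71. The middle 50% of their log2 ratios spanned 0.50, against 0.30 for cytosolic genes and 0.47 for all genes with at least 30 reads. Their counting intervals are also wider, with a median half-width of 0.27 on the log2 scale against 0.09 for cytosolic genes. How much of the wider spread counting error makes up was not tested. Of the 16, 5 had intervals wholly above 1 and 4 wholly below. Of genes with at least 30 reads, not matched for read number, 29.7% and 24.8% did.

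LARS2, which charges the leucine tRNAs of mitochondria, had the lowest ratio of all members. Its row covers 45388506 to 45549421 of chromosome 3, plus strand, GRCh38. The control held 569 reads of it (6.13 RPKM) and CDK14-sh 265 (3.17 RPKM), 1.93-fold lower (1.67 to 2.24). Among genes with at least 1 RPKM and 30 reads, 2.64% had a log2 ratio as low. IARS2, on chromosome 1 from 220094102 to 220148041, stood at 29.4 RPKM (1896 reads) and 43.5 RPKM (3121 reads), 1.48-fold lower (1.40 to 1.57). HARS2, the mitochondrial histidine enzyme, stood at 7.87 and 11.1 RPKM, 1.41-fold lower (1.25 to 1.60). CARS2, the mitochondrial cysteine enzyme, stood at 1.90 and 2.51 RPKM, 1.32-fold lower (1.14 to 1.53), in a row that shares exons with ING1. The rows of LARS2 and IARS2 overlap no other row.

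FARS2, the single-chain mitochondrial phenylalanine enzyme, had the highest ratio. Its row covers 5261044 to 5771580 of chromosome 6, plus strand. The control held 86 reads of it (2.12 RPKM) and CDK14-sh 129 (3.55 RPKM), 1.67-fold higher (1.26 to 2.22). With a pseudocount of 1 RPKM in place of 0.1, FARS2 no longer passed 1.5-fold. MARS2, the methionine enzyme, stood at 8.28 and 5.83 RPKM, 1.42-fold higher (1.22 to 1.66). RARS2, the arginine enzyme, stood at 6.52 and 4.82 RPKM, 1.35-fold higher (1.12 to 1.63). AARS2, the alanine enzyme, stood at 2.56 and 1.89 RPKM, 1.35-fold higher (1.07 to 1.70), and its row shares exons with TMEM151B. VARS2, whose row shares exons with GTF2H4, stood at 5.04 and 4.21 RPKM, 1.20-fold higher (1.07 to 1.34). For TARS2, WARS2, EARS2, NARS2, PARS2, SARS2 and YARS2 the interval held 1, with ratios from 0.900 to 1.15. PARS2 and SARS2 had fewer than 100 reads in each library, and their intervals (0.656 to 1.49 and 0.680 to 1.29) leave differences of that size undetectable at this depth.

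Summed over the 16 mitochondrial genes, reads numbered 7407 in the control and 5690 in CDK14-sh, a ratio of 0.855 (0.825 to 0.885) after division by library totals. That sum rested on 1 gene. IARS2 gave 42.1% of those reads in the control and 33.3% in CDK14-sh, and without it the ratio was 0.985 (0.942 to 1.03). Summed cytosolic synthetase reads numbered 50464 in the control and 48145 in CDK14-sh, a ratio of 1.06 (1.05 to 1.07) after the same division. Reads from the mitochondrial genome itself made up 17.1% of the CDK14-sh library and 14.5% of the control. With these left out of the totals the cytosolic ratio was 1.09. Scaled as in TPM, which moves each plain log2 ratio by -0.15, the cytosolic ratio would lie below 1. Its side of 1 therefore depends on the scaling.

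**Figure D3:**
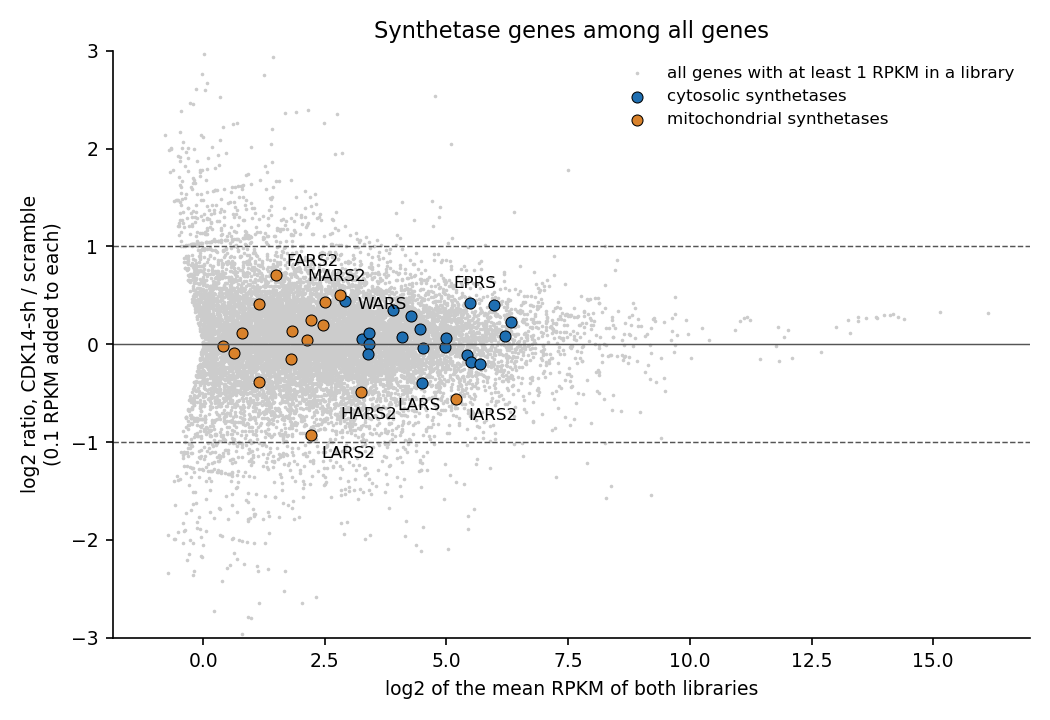
Log2 ratio of each gene with at least 1 RPKM in a library (grey), against the log2 of its mean RPKM, with cytosolic synthetases in blue and mitochondrial synthetases in orange. Dashed lines mark 2-fold, and 159 genes lie beyond the vertical axis. All 36 synthetases lie between the dashed lines, LARS2 nearest to one at -0.93.

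For 13 amino acids each compartment has 1 enzyme gene of its own among the members, so the pairs can be set side by side. The cytosolic gene stood higher than its mitochondrial partner in both libraries for 11 pairs. In the control the ratio of the levels ran from 0.398 (isoleucine) to 34.6 (serine), with a median of 3.76. Isoleucine was the exception in both libraries: IARS2 stood at 2.51 times the level of IARS in the control and 1.39 times in CDK14-sh. The other exception was histidine, where HARS stood at 0.918 times the level of HARS2 in the control and 1.41 times in CDK14-sh. These levels rest on row lengths of 7401 bases for IARS, 4165 for IARS2, 8436 for HARS and 3408 for HARS2. In reads, IARS had 2207 and IARS2 3121 in the control, and 2419 and 1896 in CDK14-sh.

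The direction of the pairs was mixed, with 5 of 13 on opposite sides of 0. Isoleucine was furthest apart: IARS had a log2 ratio of 0.28 and IARS2 of -0.56, with intervals on opposite sides of 1. Histidine followed, with HARS at 0.12 and HARS2 at -0.49, also with intervals on opposite sides. Arginine went the other way, with RARS at -0.18 and RARS2 at 0.43, again with intervals on opposite sides of 1. Cysteine (0.05 and -0.38) and alanine (-0.03 and 0.41) had a cytosolic interval that held 1. Leucine was the pair in which both members had intervals below 1, LARS at -0.39 and LARS2 at -0.93. Valine was the pair with both above 1, VARS at 0.35 and VARS2 at 0.25. For the remaining 6 amino acids the pairs lay on the same side of 0. They were methionine (0.01 and 0.50), threonine (0.23 and 0.20), tryptophan (0.44 and 0.14), asparagine (0.09 and 0.04), serine (-0.21 and -0.09) and tyrosine (-0.09 and -0.15). In TPM the cytosolic value lay below 0 for histidine, cysteine, methionine and asparagine, and the mitochondrial value for tryptophan and asparagine. With mitochondrial genome reads left out of the totals AARS lay at 0.016, on the side of AARS2.

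**Figure D4:**
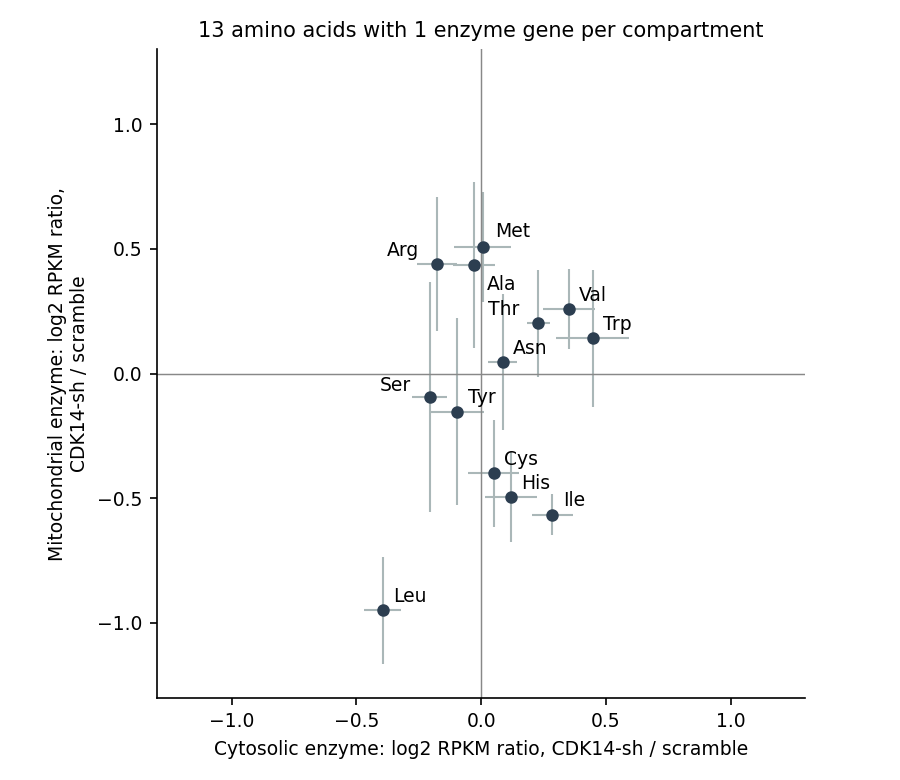
Log2 of the plain RPKM ratio (CDK14-sh over scramble) of the cytosolic enzyme gene (horizontal) and its mitochondrial partner (vertical) for 13 amino acids, with 95% counting intervals as bars. Leucine lies lowest, where LARS2 has a plain ratio of 0.518, while isoleucine, histidine and cysteine lie right of and below 0.

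HARS and HARS2 are head-to-head neighbours on chromosome 5 whose transcripts start 85 bases apart in RefSeq. The stretch between both start sites is shown because these genes, with opposite ratios, read outward from it. It runs from the HARS start at its left end, read leftward, to the HARS2 start at its right end, and is given on the plus strand of GRCh38.p14 with no part in capitals.
HARS to HARS2, chr5:140691370-140691455: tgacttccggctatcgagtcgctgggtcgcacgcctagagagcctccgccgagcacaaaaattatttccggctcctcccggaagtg
In the deposited table the HARS row (140673173 to 140692024) and the HARS2 row (140691426 to 140699291) overlap on opposite strands. The handling of strand is not given, so to which gene reads in the shared part were assigned is unknown. These genes are also close paralogs, and how reads matching both were counted is not given in the sources used here. HARS had 1445 and 1479 reads in CDK14-sh and the control, and HARS2 415 and 651.

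Cytosolic genes with the ATF4 element lay within the range of those without it. The 6 that carry it, shown above, had a median log2 ratio of 0.07: TARS 0.23, IARS 0.28, NARS 0.09, CARS 0.05, MARS 0.01 and AARS -0.03. The 10 cytosolic genes whose promoter was searched and did not hold it had a median of 0.10, from SARS at -0.21 to WARS at 0.44. YARS2, the mitochondrial carrier, stood at -0.15. No match says only that these letters are not in this window.

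The genes of the GCN2-ATF4 axis went both ways. Of 25 listed, 24 were found and 20 reached 1 RPKM. These 20 had a median log2 ratio of 0.15, with 13 above and 7 below 0, where 54.7% of all genes lay above 0. At 1.5-fold 3 were higher and 2 lower, where 9.11% and 9.55% of all genes were. ATF4 itself stood at 89.3 RPKM in CDK14-sh and 78.9 in the control, 1.13-fold higher (1.08 to 1.19). EIF2AK4, encoding GCN2, had a ratio of 0.990 (0.909 to 1.08). Past 1.5-fold and higher were PSPH, the last enzyme of serine synthesis, at 1.63-fold (1.45 to 1.84), SLC7A1, a transporter of arginine and lysine, at 1.59-fold (1.5 to 1.69), and TRIB3, a pseudokinase, at 1.57-fold (1.27 to 1.93). Past 1.5-fold and lower were SLC7A5 and SLC3A2, the light and heavy chains of the LAT1 transporter, which carries leucine, isoleucine and other large neutral amino acids into the cell. SLC7A5 stood at 19.1 RPKM in CDK14-sh and 48.5 in the control, 2.54-fold lower (2.39 to 2.70). SLC3A2 stood at 13.3 and 22.2 RPKM, 1.66-fold lower (1.54 to 1.79). ASNS, asparagine synthetase, was 1.35-fold higher (1.18 to 1.56) and PSAT1, of serine synthesis, 1.28-fold higher (1.20 to 1.35). SLC7A11, a cystine transporter, was 1.36-fold lower (1.19 to 1.55). DDIT3, a stress transcription factor whose row shares exons with MARS, was 1.28-fold lower (1.03 to 1.59).

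Other genes of tRNA handling and translation elongation that reached 1 RPKM lay within 1.5-fold. So did most genes, as 9.11% of all were at least 1.5-fold higher and 9.55% lower. In the list for tRNA editing, maturation and export, 6 of 7 reached 1 RPKM. All 6 lay above 0, against 54.7% of all genes, with a median log2 ratio of 0.24. DTD2, which removes wrongly attached amino acids, was 1.49-fold higher (1.24 to 1.80) at 5.98 against 4.01 RPKM, and TRNT1, which adds the CCA end, had the lowest ratio of 1.02 (0.884 to 1.17). The 6 genes of mitochondrial tRNA amidation, formylation and related steps had a median of 0.12. MTFMT, which formylates the mitochondrial initiator tRNA after MARS2 has charged it, stood at 3.03 and 2.13 RPKM, 1.42-fold higher (1.12 to 1.81). The 6 selenocysteine genes had a median of 0.10, from EEFSEC at -0.53, with 30 and 50 reads, to SEPHS2 at 0.27. Elongation factors that carry charged tRNA or move the ribosome had a median of 0.21 with 8 of 8 above 0. EEF2 had the highest ratio, 1.34 (1.29 to 1.40), and EEF1B2 the lowest, 1.07 (1.04 to 1.10). EEF1A2 did not reach 1 RPKM, with 1 and 17 reads.

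Ribosomal protein genes had higher medians than the synthetases. Cytosolic ribosomal proteins (82 genes) had a median log2 ratio of 0.28, with 78 above 0. Mitochondrial ribosomal proteins (78 genes) had a median of 0.22, with 63 above 0. Of all genes, 54.7% lay above 0. The synthetase medians of 0.07 and 0.08 were nearer to the 0.04 of all genes. With 1 library per group the difference between these lists was not tested.

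**Figure D5:**
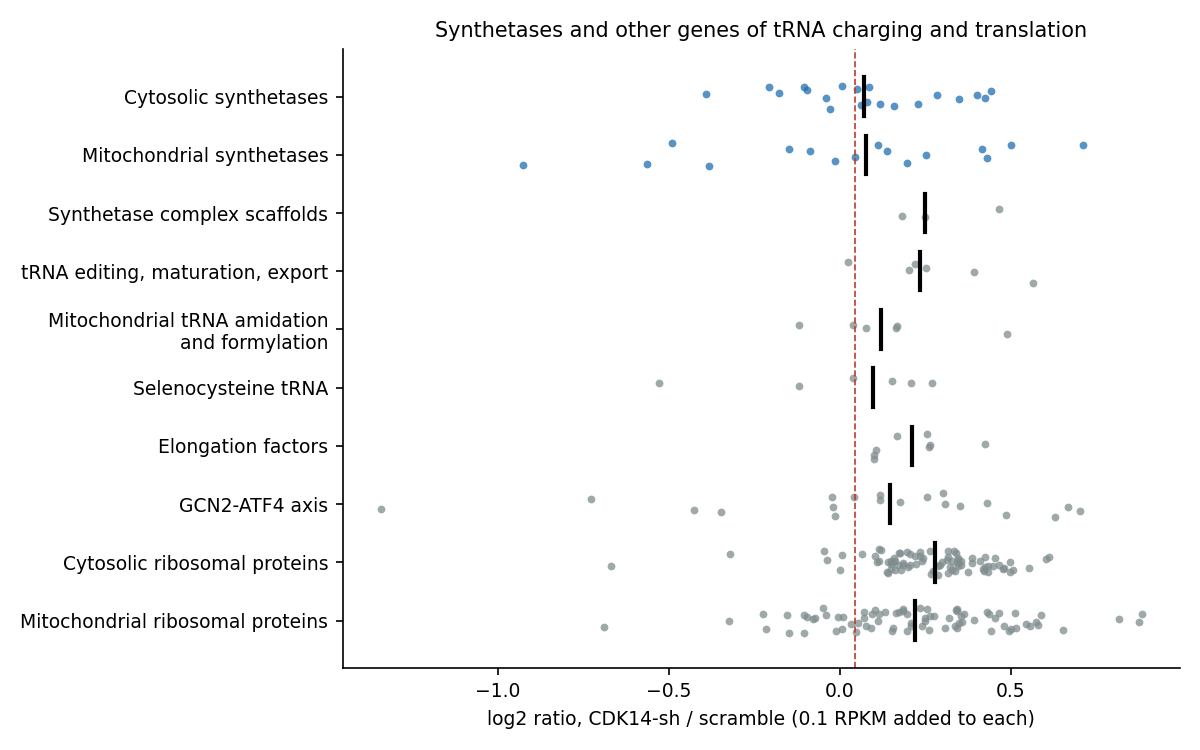
Log2 ratio (CDK14-sh over scramble, 0.1 RPKM added to each) of every gene with at least 1 RPKM in each list, with synthetases in blue, other lists in grey, a black bar at each list's median and a dashed line at the median of all genes. The synthetase medians (0.07 and 0.08) lie near the dashed line, those of ribosomal proteins (0.28 and 0.22) to its right.

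Short words in 3′ untranslated regions (UTRs) were picked in earlier work from these same ratios, as letters frequent in genes lower in CDK14-sh. One is GTCATGC, which overlaps in 6 letters with the word TCATGCA that follows. Another is ATCCATA, which overlaps in the same way with the word TCCATAA. On the sense strand of the longest GENCODE v29 3′ UTR, at least 1 of them occurred in 6 of 36 members (16.7%), against 25.2% of 10314 genes searched. The 6 were LARS, LARS2, IARS2, YARS, MARS and WARS2. They include the lowest cytosolic gene and the 2 lowest mitochondrial genes, for each of which 1 site is shown with the word in capitals, 5′ to 3′ on the strand of the transcript.
LARS: tgtttaaagGTCATGCtggtcgggt
LARS2: cccagctctGTCATGCaggcctgtc
IARS2: cctatatatATCCATAgtggactta
LARS holds 3 sites in all, a second of the same word and one of TCATGCA. In the site of LARS2 the next word begins 1 base after the one in capitals. The log2 ratios of the 6 were -0.39, -0.93, -0.56, -0.09, 0.01 and 0.14 in the order named, a median of -0.24, against 0.10 for the 30 members without a word. Over all genes searched the medians were -0.09 with a word and 0.07 without. A longer UTR gives more places for a word, and these medians take no account of length. The UTRs of the 6 were 1068, 1891, 406, 742, 2272 and 2144 bases long in the order named, against a median of 592 over the 36 members. HARS2 and CARS2, the next lowest mitochondrial genes, carried none. As the words were chosen from these ratios, these values are a description and no independent evidence, and a part for the words in the lower levels was not tested.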

How the data were processed

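The authors deposited 1 table of RPKM values beside exon coordinates and total exon length per gene, per the file headers. GRCh38 and mm8 are the builds, and Subread 1.5.1 with featureCounts and Bowtie 0.12.2 the tools, listed in the submitters' processing notes, with no role stated. How strand, overlaps and multi-mapped reads were handled is not given in the sources used here. All 36 members overlap their GENCODE v29 gene on GRCh38, 33 with the same span, and exons of 18 overlap another row on either strand. Multiplying RPKM by exon length and library total gave whole reads within 0.01 read, so reads were recovered and used for 95% Clopper-Pearson counting intervals. These cover counting error only. Ratios used 0.1 RPKM added to each level and at least 1 RPKM in the higher library. The interval code was checked on simulated data. Members, lists and tests were chosen with earlier results of these data known. Members past 1.5-fold, the 4 highest and lowest ratios per compartment, the 3 highest and lowest levels in the control, the amino acid pairs, and list members past 1.5-fold (failing any, the largest ratio each way) were named by rule; ATF4, EIF2AK4, ASNS, PSAT1, SLC7A11 and DDIT3 were added after their values were seen, and 1 listed gene is not reported here. Alternatives were the pseudocount, level filter, scaling and overlapping rows. A plain ratio, sums without IARS2 or mitochondrial genome reads, and intervals in TPM were added after seeing the data. Software was scipy 1.17.1, pandas 2.3.3, numpy 2.4.6, matplotlib 3.10.9 and Python 3.11.15.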

Additional observations from a re-analysis of the deposited data

How the results depend on the processing

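No paired analysis was possible because there was 1 library for each group, and no test was run. Counts at 2-fold were 0 in both directions, and 1 gene, LARS2, was lower past 2-fold in TPM, which shifts each plain ratio by -0.15 log2. At 1.5-fold the count of 1 higher was 0 with a pseudocount of 1 RPKM, with at least 5 RPKM required, which FARS2 does not reach, and in TPM. The count of 1 lower was 3 in TPM and 2 with median centring. The cytosolic median was -0.082 in TPM, where the median of all genes was -0.11. The mitochondrial median was 0.20 over 7 genes with at least 5 RPKM. Over rows that overlap no other row the medians were 0.12 (10 cytosolic genes) and 0.09 (8 mitochondrial genes). Intervals above and below 1 numbered 9 and 15 in TPM, against 14 and 8. The ratio of summed cytosolic reads was 1.09 with mitochondrial genome reads left out of the totals, and that of mitochondrial synthetases 0.985 without IARS2. On the scale of TPM the ratio of summed cytosolic reads would lie below 1, against 1.06 in the main setting. In TPM 9 members with a log2 ratio between 0 and 0.14 changed side of 0: CARS, FARSB, HARS, KARS, MARS, NARS, EARS2, NARS2 and WARS2. AARS (0.016), DARS (0.004) and PARS2 (0.026) did so with mitochondrial genome reads left out, and MARS (-0.038) with median centring. Of 261 member values in alternatives 240 stayed within their counting interval, and the 21 that moved were all in TPM, out of 36 members there. Part of the 240 could not move, because changing the level filter or dropping overlapping rows leaves the ratio of a kept member unchanged. That covers 36 values with no level filter, 27 with at least 5 RPKM and 18 over rows that overlap no other row. Depth limits PARS2 and SARS2 most, with fewer than 100 reads in each library.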
